A study of Homo sapiens with 4 samples.

Results

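The interleukin 1 (IL1) family, *PTX3* and *SOD2* were followed in LN229, a widely used cell line from a human glioblastoma, with and without knockdown of *SOX2*. The set comprised 9 of the 20481 gene symbols on the array, *IL1A*, *IL1B*, *IL18*, *IL1RN*, *IL1R1*, *IL1RAP*, *IL1RL1*, *PTX3* and *SOD2*. Every gene probe whose annotated symbol equalled one of these names was taken, which gave 11 of the 33096 gene probes on each array, 2 of them for *IL1RAP* and 2 for *SOD2*. The genes were chosen with results of this same comparison in view, so their values are a description and carry no test.

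The study compared cells given an siRNA against *SOX2* (SOX2 knockdown) with cells given a control siRNA that has no target (mock knockdown), all in DMEM, to find genes under the control of this stem cell transcription factor. The siRNA pairs with its transcript and leads to the breakdown of that mRNA. Each group held 2 arrays, of the 1-colour Applied Biosystems Human Genome Survey type, and the study's methods call them biological replicates from separate transfections. All 4 samples came from 1 cell line, and the labels name neither the time after transfection, which only the study's methods give, nor the siRNA used for the arrays. In bulk RNA of this kind, fewer cells of a type and less RNA per cell cannot be told apart.

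IL1 signalling starts when the ligand IL1 alpha or IL1 beta binds the receptor IL1R1, which then recruits the accessory protein IL1RAP. The adaptor MYD88 and the IRAK kinases carry the signal to NF-kappaB, and the antagonist IL1RN blocks it by occupying the receptor without recruiting IL1RAP. *PTX3* and *SOD2* are well-known targets of IL1 in many cells, and glial cells and glioma lines can both make and answer to these cytokines. *PTX3* encodes long pentraxin 3, a secreted pattern-recognition protein of innate immunity, and *SOD2* encodes the manganese superoxide dismutase of mitochondria.

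The promoters of 3 members are shown because they cover the genes with the highest ratios, *PTX3* and *IL1RL1*, and the family's best-known ligand, *IL1B*. The sequences are from RefSeq (GRCh38.p14) and are printed in the direction of the gene, each 300 bases long with 250 bases before the annotated start. Capitals mark matches on either strand to 3 motifs, namely the NF-kappaB consensus (10 bases), the AP-1 motif TGANTCA and the SOX motif CATTGT. The windows are chr3:157436600-157436899 on the plus strand for *PTX3*, chr2:102337007-102337306 on the plus strand for *IL1RL1* and chr2:112836730-112837029 on the minus strand for *IL1B*.
PTX3: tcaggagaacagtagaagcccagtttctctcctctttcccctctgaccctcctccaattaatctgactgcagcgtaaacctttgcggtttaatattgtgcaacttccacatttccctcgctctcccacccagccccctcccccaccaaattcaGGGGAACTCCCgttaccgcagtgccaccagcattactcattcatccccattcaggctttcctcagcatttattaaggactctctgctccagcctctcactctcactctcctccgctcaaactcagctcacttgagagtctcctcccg
IL1RL1: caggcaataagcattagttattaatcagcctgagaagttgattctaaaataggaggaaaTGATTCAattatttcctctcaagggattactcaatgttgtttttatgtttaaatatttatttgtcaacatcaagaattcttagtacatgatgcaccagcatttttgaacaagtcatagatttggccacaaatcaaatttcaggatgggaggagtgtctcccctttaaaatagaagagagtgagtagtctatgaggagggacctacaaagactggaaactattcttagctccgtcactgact
IL1B: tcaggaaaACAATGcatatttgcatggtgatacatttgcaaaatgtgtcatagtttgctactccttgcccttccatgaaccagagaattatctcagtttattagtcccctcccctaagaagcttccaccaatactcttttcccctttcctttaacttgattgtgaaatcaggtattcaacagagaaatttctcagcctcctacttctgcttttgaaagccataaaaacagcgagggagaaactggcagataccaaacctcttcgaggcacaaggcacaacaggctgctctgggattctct

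The table held 18 windows for 8 of the 9 members. The NF-kappaB consensus matched in 1 window, that of *PTX3*, where overlapping matches began 97 and 96 bases before the start, and it matched in 11.3% of the 35116 RefSeq promoters. The AP-1 motif matched in 4 windows of 3 members, *IL1A*, *IL1RN* and *IL1RL1*, against 7.71% of all promoters. The 2 windows of *IL1A* overlap and hold the same AP-1 matches. In the *IL1RL1* window shown the AP-1 match lay 191 bases before the start, and the other of its 2 windows, not shown, held none of the 3 motifs. The SOX motif matched in 3 windows of 3 members, *IL1B*, *IL1RN* and *IL1R1*, against 10.8% of all promoters. In *IL1B* the match lay 242 bases before the start, on the strand opposite to the gene. None of the 3 motifs was found in the 4 windows of *SOD2* or the 1 window of *IL1RAP*.

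Signals are given as scaled signal, the deposited signal divided by the 75th percentile of its array, so that a value of 1 is the level of the 75th percentile probe. A probe was kept when both arrays of either group had a signal-to-noise ratio (S/N) above 3 for it, which held for 21256 probes and for 9 of the 11 member probes. Each array showed S/N over 3 for 63.8% to 69.4% of its probes. The 196 negative control features had a 95th percentile of 0.0597 to 0.073 on the 4 arrays, and 12 to 23 of them (6.12% to 11.7%) also passed S/N 3, so a kept probe near that level is not clearly apart from background. The targeted gene was checked first. *SOX2* gave a scaled signal of 0.467 and 0.701 after mock knockdown and 0.209 and 0.149 after SOX2 knockdown. The knockdown mean was 0.307 of the mock mean and lower on both arrays (log2 difference −1.69, SE 0.28), with a limma adjusted p of 0.117 over all probes. Of 10 glioma or astroglial markers, 8 had S/N over 3 on every array, against 1 of 10 colon markers, which were counted because 1 label field names the colon line SW620. Among the glioma or astroglial markers *FABP7* was lower by more than 2-fold. It gave 19.7 and 22.6 after mock knockdown and 10.3 and 10.5 after SOX2 knockdown, a ratio of 0.49.

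*PTX3* showed the highest ratio of the members. Its scaled signal was 0.124 and 0.116 after mock knockdown and 0.923 and 0.797 after SOX2 knockdown. Both knockdown arrays were high and both mock arrays low, with no overlap, and the lowest knockdown value was 6.44 times the highest mock value. The means were 0.12 ± 0.00529 (SD, n = 2) and 0.860 ± 0.0892 (SD, n = 2), a ratio of 7.17 and a log2 difference of 2.84 (SE 0.15). Of the 21256 kept probes, 12 (0.0565%) had a higher log2 difference. The S/N of the *PTX3* probe was 13.8 and 28.6 after mock knockdown and 56.0 and 43.6 after SOX2 knockdown, so the transcript was measured in both groups and the mock level lay above the 95th percentile of the negative controls. The raw chemiluminescence reading, from which the scanner software had not yet removed the local background, was 19558 and 17715 for mock and 42369 and 39796 for knockdown. The groups were thus apart before any normalisation, with a smaller ratio of 2.20.

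*IL1RL1* encodes ST2, the receptor of interleukin 33, and was the other member past the 2-fold cutoff that the study's methods use. Its scaled signal was 0.033 and 0.0262 after mock knockdown and 0.0594 and 0.0923 after SOX2 knockdown. The groups did not overlap, but the values lay around the 95th percentile of the negative controls, and S/N was 1.2, 4.81, 3.53 and 3.23 in the same order. The ratio of the means was 2.56 (log2 difference 1.33, SE 0.27), taken against a mock level that was not clearly apart from background. The probe was kept through the knockdown arrays alone, where it was higher, so both the size and the presence of a difference are uncertain. The log2 difference was 0.57 with a floor of 0.05 on the scaled signal and 0.44 after normexp, a model-based background correction of the raw reading. The raw readings themselves had a ratio of 0.980.

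*SOD2* had a pair of probes that disagreed. The probe with RefSeq transcripts (probe 149133) gave 0.485 and 0.477 after mock knockdown and 0.776 and 0.777 after SOX2 knockdown. Each group was tight and the groups lay apart, at means of 0.481 ± 0.00594 and 0.777 ± 0.00042 (SD, n = 2), a ratio of 1.61 and a log2 difference of 0.69 (SE 0.12). The second probe (233723), for which the files list no transcript accession, gave 0.142 and 0.112 after mock knockdown and 0.0802 and 0.149 after SOX2 knockdown. Here the groups overlapped, with a ratio of 0.904 and a log2 difference of −0.20 (SE 0.35). The sign of the second probe turned without SOX2 knockdown replicate 1 (0.24) and after normexp (0.72). Averaging both probes by gene ID, as the study's methods do, gave a ratio of 1.47.

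**Figure D1:**
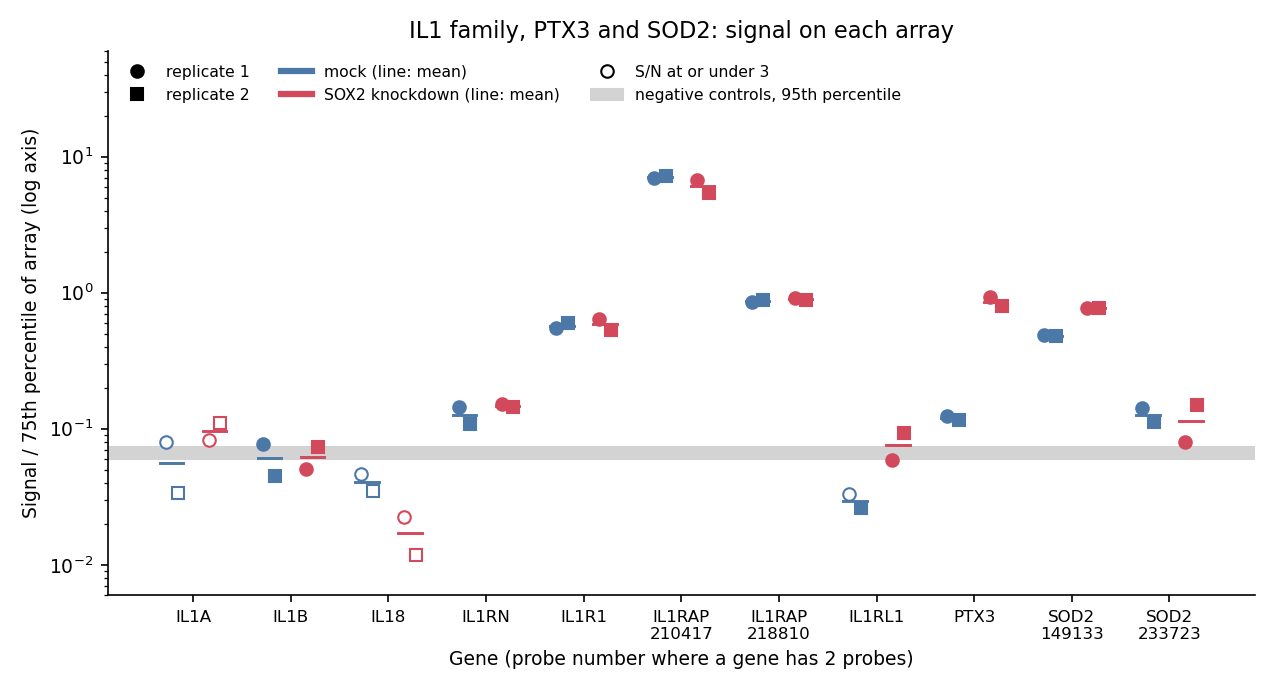
Scaled signal (log axis) of the 11 member probes on each of the 4 arrays, with circles for replicate 1, squares for replicate 2, open symbols for S/N at or under 3, short lines for group means and a grey band for the range of the 95th percentile of the negative controls. The *PTX3* knockdown arrays (0.923 and 0.797) stand far above the mock arrays (0.124 and 0.116), while *IL1A*, *IL1B*, *IL18* and *IL1RL1* lie around or below the grey band.

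The ligands lay at or near the level of the negative controls. *IL1B* encodes IL1 beta, the secreted form that needs cleavage by caspase 1, and its scaled signal was 0.0776 and 0.0451 after mock knockdown and 0.0505 and 0.0738 after SOX2 knockdown. The groups overlapped fully, with a ratio of 1.01 and a log2 difference of 0.05 (SE 0.34), although S/N was 4.8 to 8.93. The direction changed with the array left out, from −0.35 without mock replicate 2 and −0.23 without SOX2 knockdown replicate 2 to 0.44 without mock replicate 1 and 0.32 without SOX2 knockdown replicate 1. *IL1A* encodes IL1 alpha, which is active without cleavage. Its values were 0.0792 and 0.0334 after mock knockdown and 0.0831 and 0.111 after SOX2 knockdown, and its S/N was at most 1.42. *IL18* encodes interleukin 18, a caspase 1 substrate that acts through a receptor of its own. Its values were 0.0462 and 0.0349 after mock knockdown and 0.0223 and 0.0117 after SOX2 knockdown, with S/N of at most 0.21. No fold is given for *IL1A* or *IL18*, as neither probe passed S/N 3 on any array.

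*IL1RN*, the receptor antagonist, gave 0.144 and 0.109 after mock knockdown and 0.151 and 0.144 after SOX2 knockdown. The groups were separated by a margin of 1.005 between the lowest knockdown and the highest mock value, so the log2 difference of 0.24 (SE 0.18) rested largely on mock replicate 2. It was 0.04 without that array.

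The receptor subunits were clearly measured and differed little. *IL1R1*, which binds the ligand, gave 0.549 and 0.596 after mock knockdown and 0.640 and 0.530 after SOX2 knockdown, with S/N from 22.7 to 64.5. The groups overlapped, with a log2 difference of 0.03 (SE 0.16). That sign turned without mock replicate 1 (−0.03) and without SOX2 knockdown replicate 1 (−0.11). *IL1RAP*, the accessory chain shared by the IL1, IL33 and IL36 receptors, had probes for different transcripts. The probe for NM_002182 gave 6.91 and 7.17 after mock knockdown and 6.70 and 5.42 after SOX2 knockdown, lower on both arrays, with a log2 difference of −0.22 (SE 0.16). The probe for NM_134470 gave 0.850 and 0.879 after mock knockdown and 0.908 and 0.886 after SOX2 knockdown, with a log2 difference of 0.05 (SE 0.12). The signs of the *IL1RAP* probes thus differed, and both differences were under 2 of their standard errors.

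**Figure D2:**
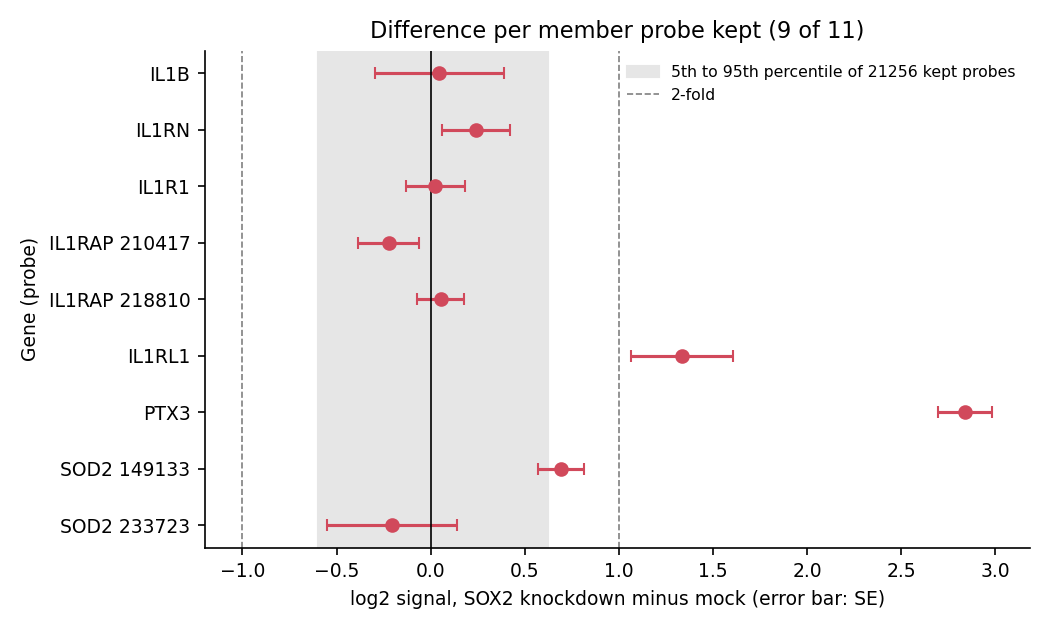
Log2 difference of scaled signal, SOX2 knockdown minus mock, with its SE for the 9 member probes kept, beside the range from the 5th to the 95th percentile of 21256 kept probes (grey, −0.60 to 0.62) and the 2-fold lines (dashed). *PTX3* (2.84), *IL1RL1* (1.33) and *SOD2* probe 149133 (0.69) lie to the right of the grey range and the other 6 probes lie inside it.

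Counted together, 2 of the 9 kept member probes (*PTX3* and, at the level of the negative controls, *IL1RL1*) were higher by more than 2-fold and 0 were lower. Among all 21256 kept probes 554 (2.61%) passed 2-fold, 334 (1.57%) higher and 220 (1.04%) lower. The groups did not overlap for 6 of the 9 member probes, against 47.0% of all probes. The median log2 difference was 0.05 over the member probes and −0.00 over all probes, so most members sat with the bulk of the array. The member counts restate the comparison that the genes were chosen on, and nothing is read from them.

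The probes whose pattern over the 4 arrays was most like that of *PTX3* were found among 15882 candidates by the root mean square difference of centred log2 signals. The nearest was *CXCL3*, a neutrophil-attracting chemokine, at 0.107. It gave 0.175 and 0.174 after mock knockdown and 1.25 and 1.32 after SOX2 knockdown, a ratio of 7.37. Next came *TSLP*, a cytokine of epithelial cells, at 0.137, with 0.0611 and 0.0465 after mock knockdown and 0.465 and 0.396 after SOX2 knockdown. The third, named LOC144501 in the array's annotation, lay at 0.203 and had a ratio of 8.96. With 4 arrays in 2 groups, likeness here means little more than a similar step between the groups.

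The rest of the family was mostly not detected. Of 15 other IL1 family ligands, receptors and decoys on the array, 4 were kept and 0 passed 2-fold. *IL36A*, an epithelial ligand, gave 1.05 and 0.577 after mock knockdown and 0.661 and 1.07 after SOX2 knockdown, with complete overlap. *IL37*, an inhibitory ligand, gave 0.101 and 0.064 after mock knockdown and 0.0935 and 0.109 after SOX2 knockdown. *IL18BP*, the soluble decoy that binds interleukin 18, gave 37.2 and 29.9 after mock knockdown and 30.0 and 33.4 after SOX2 knockdown. *SIGIRR*, a receptor that dampens IL1 signalling, gave 1.60 ± 0.136 after mock knockdown and 1.59 ± 0.0351 after SOX2 knockdown (SD, n = 2). The groups overlapped for each of these 4 genes. *IL33*, the ligand of *IL1RL1*, was not kept, and neither was the decoy receptor *IL1R2*. Members and relatives lie close together on chromosome 2, in the order *IL1R2*, *IL1R1*, *IL1RL2*, *IL1RL1*, *IL18R1* and *IL18RAP*. Of these 6 neighbours, *IL1R1* and *IL1RL1* were kept.

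Downstream of the receptor, 17 of 19 genes of IL1 receptor signalling were kept and 0 passed 2-fold in either direction, with a median log2 difference of −0.05. The largest difference was that of *PELI2*, a ubiquitin ligase acting on IRAK proteins, at −0.67 (SE 0.13). For the processing of IL1 beta and interleukin 18, 14 of 15 genes were on the array, 10 were kept and 0 passed 2-fold, with a median of −0.02. *CASP1*, the protease that cleaves both cytokines, and its sensor *NLRP3* were not kept.

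Genes known to be induced by IL1 had the highest median of the lists. Of 27 on the array, 20 were kept, 9 were higher by more than 2-fold and 0 lower, with a median log2 difference of 0.81. Of the 20, 16 had a log2 difference above 0, and *PTGS2* (−0.19), *ICAM1* (−0.12), *NFKBIZ* (−0.08) and *LIF* (−0.07) lay below it. In 18 of the 20 the groups did not overlap in either direction, *PTGS2* and *NFKBIZ* being such genes on the lower side. Over all probes 1.57% were higher by 2-fold and 47.0% did not overlap. Over the lists as counted, cell type markers aside, no other gene passed 2-fold. The total of 9 was 4 after normexp, 6 with a floor of 0.05 and 7 when every array had to exceed S/N 3. *IL6*, a cytokine induced through NF-kappaB, gave 0.0545 and 0.0683 after mock knockdown and 0.640 and 0.631 after SOX2 knockdown. Its mock values lay below the 95th percentile of the negative controls, so no exact ratio is given. *BIRC3*, an inhibitor of apoptosis, had a ratio of 3.36, and *CXCL3* is given above. The *BIRC3* mock values, 0.0825 and 0.0901, lay only a little above the 95th percentile of the negative controls, so the size of its ratio is uncertain. The chemokine *CXCL2* and the acute-phase gene *SAA1* had S/N at or under 3 on both mock arrays. They were kept through the knockdown arrays alone, where they were higher, and also count towards the 20, the 18 and the median. *CXCL2* gave 0.0534 and 0.0805 after SOX2 knockdown and *SAA1* gave 0.0609 and 0.0822, around the 95th percentile of the negative controls, so both are among the 9 but no fold is given for them. The *SAA1* probe shares a gene ID with that of the near-identical *SAA2*, so the signal of one may include the other. *SAA2* is also among the 9, with mock values of 0.0396 and 0.0422, below the 95th percentile of the negative controls. The 9 may thus not be separate transcripts, and the total was 8 with probes averaged by gene ID. This list was written with earlier results of these data known and *IL6*, *CXCL3* and *BIRC3* were already seen to differ, so it is not independent evidence of a direction.

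Among the known partners of *PTX3*, *TNFAIP6*, the hyaluronan-binding protein that joins pentraxin 3 in the extracellular matrix, gave 1.68 and 1.86 after mock knockdown and 0.981 and 0.958 after SOX2 knockdown, a ratio of 0.547. The groups did not overlap, and the gene lay lower where *PTX3* lay higher. Its log2 difference was −0.87 (SE 0.13). *TNFAIP6* was placed with these partners and not with the IL1-induced genes, so the counts and median given for those genes leave it out.

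Among the genes that remove superoxide and peroxide, 13 of 14 were kept, 0 passed 2-fold and the median log2 difference was −0.11. *SOD1*, the cytosolic enzyme, gave 21.0 and 22.9 after mock knockdown and 21.6 and 19.1 after SOX2 knockdown, with overlapping groups and a log2 difference of −0.11 (SE 0.14). *SOD3*, the secreted enzyme, was not kept. *GLRX2*, a mitochondrial glutaredoxin, had the highest ratio of this list, 1.82.

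**Figure D3:**
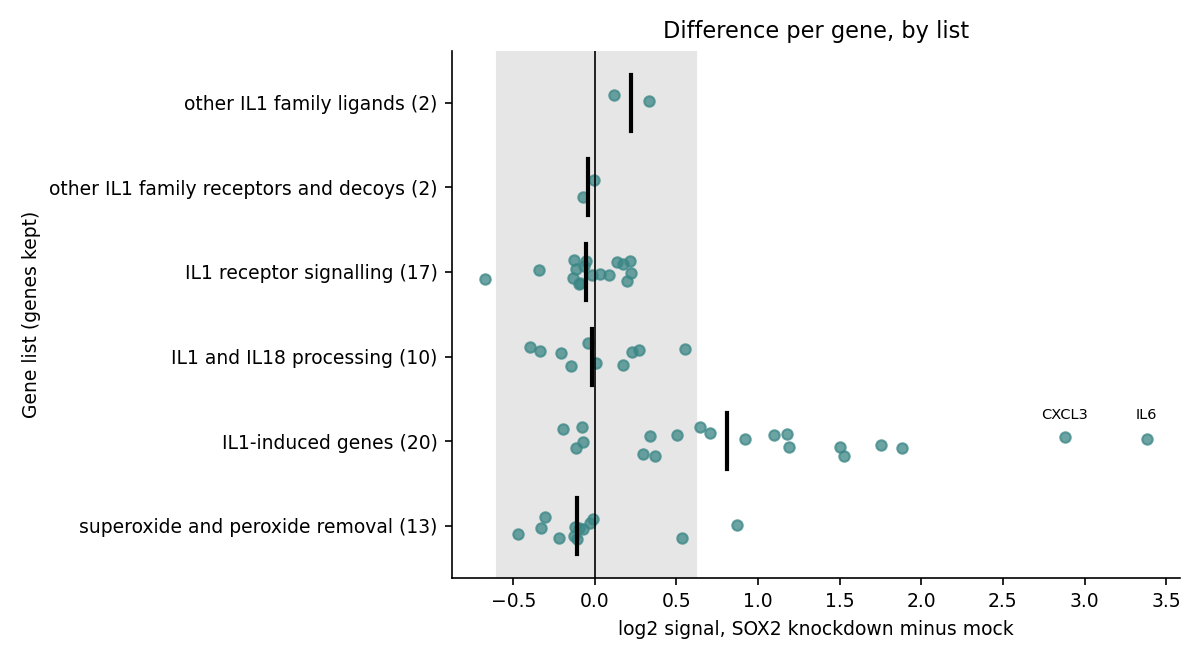
Log2 difference of scaled signal, SOX2 knockdown minus mock, for each kept gene (point) of 6 gene lists, with the list median (black line), the number of genes kept in parentheses and the 5th to 95th percentile of all kept probes in grey. The IL1-induced genes spread to the right (median 0.81), while the medians of IL1 receptor signalling (−0.05) and processing (−0.02) lie near 0.

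No single probe of any list passed the test. limma called 0 of 21256 probes (0.0%) at an adjusted p of 0.05, the smallest adjusted p being 0.0582, and 3626 probes had an unadjusted p under 0.05. The number of arrays, 2 a group, limits the precision of every value above. Myeloid cells are a common source of IL1 and *PTX3*. Of 10 myeloid markers, 9 were on the array, 4 had S/N over 3 on every array (*CD14*, *ITGAM*, *FCER1G* and *SPI1*) and 4 on none (*ITGAX*, *CSF1R*, *AIF1* and *TYROBP*). The summed scaled signal of the 9 was 2.79 to 3.97 after mock knockdown and 2.94 to 3.87 after SOX2 knockdown, so the ranges overlapped. The largest parts of the sum were *SPI1* and *FCER1G*. Both were high on mock replicate 1 and SOX2 knockdown replicate 2 (1.92 and 1.75, 1.413 and 1.441). They were lower on mock replicate 2 and SOX2 knockdown replicate 1 (1.25 and 1.28, 1.015 and 1.072). The sum thus followed a pattern across the groups and is no measure of myeloid content, which was not tested. Other probes of these genes, which went in both directions, were left out of the sum.

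**Figure D4:**
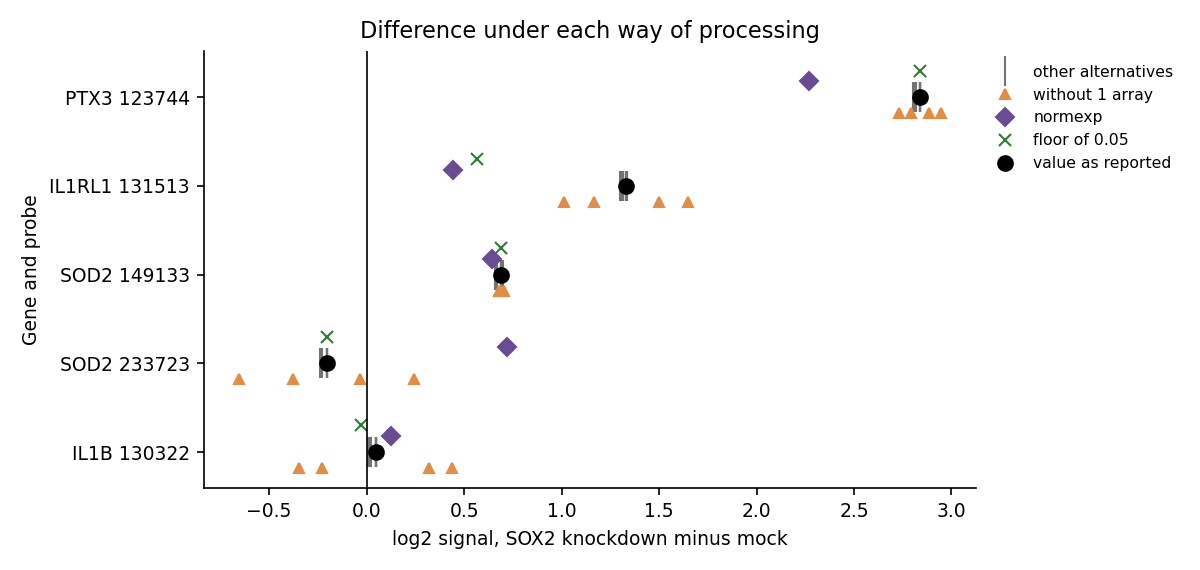
Log2 difference, SOX2 knockdown minus mock, of 5 member probes as reported (black), without each array in turn (triangles), after normexp (diamonds), with a floor of 0.05 (crosses) and under the other alternatives (grey ticks). *PTX3* stays between 2.27 and 2.94, *IL1RL1* ranges from 0.44 to 1.65, and *IL1B* and *SOD2* probe 233723 fall on both sides of 0.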

How the data were processed

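Total RNA was labelled with biotin and read by chemiluminescence on 4 arrays. Groups came from the source names in the labels and replicate numbers from the titles. The deposited scanner files hold linear intensity, normalised within each array by the authors' scanner software, with its error, and S/N as a deposited score. The software version is not given in the sources used here, nor is what each flag means. A second deposited table holds linear ratios that the authors made with GeneSpring and was used as an alternative.

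Control features and 210 probes with a flag of 5000 or more were left out. Scaling divided every array by its own 75th percentile over probes (6.06 and 6.88 for mock, 6.74 and 5.96 for SOX2 knockdown), floored at 0.01 and taken to log2, which left 21256 probes kept and 11630 dropped at S/N 3. Ratios are of linear replicate means. log2 differences and their SE came from limma 3.58.1 in R 4.3.3 (lmFit and eBayes, two-sided, Benjamini-Hochberg over all kept probes), tested on simulated data. Probes stayed single, where the study's methods average by gene ID. List counts took the brightest probe per gene, and 134 of 137 list entries were found on the array through RefSeq symbols and synonyms. One list entry is not reported here. It was left out whatever its value, after the data were seen, so counts and the median of its list are not given.

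The members and lists were chosen with earlier results of these data known. The genes named are *SOX2*, all members, up to 5 genes past 2-fold per list by absolute log2 difference, every kept IL1 family ligand or receptor, and the 3 probes nearest to a member past 2-fold with S/N over 3 on all 4 arrays. *IL33*, *IL1R2*, *PELI2*, *CASP1*, *NLRP3*, *TNFAIP6*, *SOD1*, *SOD3*, *GLRX2*, *SAA2*, *FABP7*, *PTGS2*, *ICAM1*, *NFKBIZ* and *LIF* were singled out after their values were seen. The p-values measure the spread between these arrays. Alternatives covered scaling, background correction, floors, S/N filters, flags, the fold cutoff, the variance model, the replicate block, gene ID averages, the series table and leaving out each array. A crossed replicate block was chosen after seeing the data. The files name no genome build, so coordinates are those of the RefSeq windows only.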

Additional observations from a re-analysis of the deposited data

How the results depend on the processing

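Among the 9 kept member probes the sign of the log2 difference held in 15 of 18 alternatives for *IL1B*, 13 of 18 for *IL1R1* and 15 of 17 for *SOD2* probe 233723, and in every alternative for the other 6. Settings that alter only the filter or the variance model leave these differences as they are. *PTX3* stayed between 2.73 and 2.94 without any 1 array and fell no lower than 2.27 (normexp). The count of member probes past 2-fold was 2 without any 1 array, but 1 after normexp, with a floor of 0.05, when every array had to exceed S/N 3, and at 3-fold. In each of these 4 settings *PTX3* was the probe counted and *IL1RL1* was not. Over the lists, cell type markers aside, 9 of 70 kept genes passed 2-fold. The count was 4 after normexp, 6 with a floor of 0.05, 15 at 1.5-fold, 4 at 3-fold and 8 to 12 without 1 array. It was 7 when every array had to exceed S/N 3. With no S/N filter it was 13, of which 10 were higher. Over all probes the count was 554, against 235 after normexp, 363 with a floor of 0.05, 1373 with no S/N filter, 302 with S/N over 3 on all 4 arrays, 2234 at 1.5-fold, 119 at 3-fold and 782 to 1192 without 1 array.

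limma called 0 probes as reported and 0 without any 1 array, but 826 under median scaling, 776 with no further scaling, 758 on the series table, 287 with a variance trend and 5 when every array had to exceed S/N 3. Under median scaling, no further scaling and the series table, limma's prior degrees of freedom were infinite and 1 common spread stood in for every probe, where the reported fit had prior degrees of freedom of 2.44, so these counts and the *SOX2* p-values below do not rest on each probe's own replicates. The cause of the calls with a variance trend was not tested. Besides *PTX3*, which was chosen on this comparison and carries no test, the 5 were *LOC144501*, *SH3RF2*, *IL6* and *CXCL3*, named after their values were seen. The *SOX2* difference of −1.69 was called under median scaling (−1.73, adjusted p = 4.64e-07), with no further scaling (−1.72, 8.15e-07) and on the series table (−1.72, 6.63e-07), and ranged from −1.99 to −1.40 without 1 array. Its adjusted p ranged from 4.64e-07 to 0.476 over all alternatives.

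The signals did not follow the replicate numbers as pairs, as the replicate differences of the groups correlated at r = −0.484 over 21256 probes (across probes, which are not independent replicates). Whether samples of the same number were handled together cannot be told from this value. With the replicate block limma called 0 probes, and *SOX2* stayed at −1.69 (adjusted p = 0.303). The crossed replicate block, chosen after seeing the data, also called 0 probes (smallest limma adjusted p 0.0661). *SOX2* was at that adjusted p, with an SE of 0.10 against 0.28 as reported, and the SE of *IL1B* was 0.12 against 0.34. The stricter lower bound applied to no member, so it gave no value for them. With 2 arrays a group and member ligands near the negative controls, differences of the size seen in *IL1B* were not detectable.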

Other observations

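A pattern that does not follow the groups ran across the array. The difference of replicate 1 and replicate 2 in the mock group correlated negatively with that in the SOX2 knockdown group (r = −0.484 over 21256 probes), and several genes near this family were high on mock replicate 1 and SOX2 knockdown replicate 2 and low on the other arrays. *IL1B* showed it (0.0776 and 0.0738 against 0.0451 and 0.0505), as did *IL36A* (1.05 and 1.07 against 0.577 and 0.661). Among the short pentraxins, *CRP*, the acute-phase C-reactive protein, gave 0.160 and 0.154 against 0.0901 and 0.0891, and *APCS*, serum amyloid P, gave 0.470 and 0.440 against 0.167 and 0.275. *PYCARD*, the inflammasome adaptor, gave 0.145 and 0.141 against 0.0596 and 0.0891. Genes outside the family showed it too, such as the astroglial marker *GFAP* (0.314 and 0.314 against 0.180 and 0.203) and the myeloid factor *SPI1* (1.92 and 1.75 against 1.25 and 1.28). All were picked out after their values were seen, so nothing particular to the family is read from them. With the crossed replicate block limma called 0 probes.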
